A study of Mus musculus with 18 samples.

Results

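Mouse gastruloids at day 3 (72 h) were compared with the embryonic stem cells they were made from at day 0 (0 h), in cultures that had been given doxycycline (Dox). The comparison holds all 3 day 3 Dox libraries and all 3 day 0 Dox libraries, 6 of the 18 RNA-seq libraries of the series, chosen by their labels alone. The cells were RHKI, a mouse embryonic stem cell line that derives from E14Tg2a and carries an HA-tagged Rnaseh1 knock-in, the same genotype in every group. Day 3 Dox and day 0 Dox cultures received 500 ng/ml Dox for 48 h ahead of differentiation, and whether Dox was kept on afterwards is not given in the labels. Day 3 control and day 0 control libraries (3 each, same line, no Dox) served as a second course. Day 0 cells grew in medium with LIF, serum, the GSK3 inhibitor CHIR-99021 and the MEK inhibitor PD0325901. The line is labelled as 1 line, so no result speaks for other clones, and the labels do not say that the 3 replicates were separate cultures. The p-values therefore rest on the spread between libraries, estimated over all 18 of the series, which may be technical. Day, medium and aggregation changed together between the groups and cannot be told apart.

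Mouse embryonic stem cells in LIF and both inhibitors are held in the naive state of pluripotency, in which transcription factors such as Nanog, Esrrb, Klf4 and Tfcp2l1 sustain one another. When the inhibitors are withdrawn, cells pass through a formative state marked by Fgf5 and Otx2 and can then take up germ layer programs. In gastruloids, aggregates of stem cells that elongate in culture, a pole of cells expressing T (Brachyury) arises that resembles the primitive streak and tailbud. Rnaseh1 encodes RNase H1, a nuclease that cuts the RNA strand of RNA-DNA hybrids such as R-loops.

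The authors' estimated counts per library ran from 25748897 to 32692650 in the 6 Dox libraries. Levels are given as CPM, the counts scaled to a common TMM-adjusted library size, in the order of replicates 1, 2 and 3, and changes as log2 fold changes of day 3 Dox over day 0 Dox from edgeR with their standard error (SE). "Rose" and "fell" are used of genes with a Benjamini-Hochberg adjusted p under 0.05 in edgeR's quasi-likelihood test over 17795 genes. Day 0 replicates differed more than day 3 replicates, whereas the test used a shared estimate of the spread per gene for all groups. The median chi-square per gene between 2 libraries was 2.34, 4.49 and 4.84 for the pairs of day 0 Dox libraries and 0.750 to 0.964 for the day 3 Dox pairs, against 0.455 expected from sampling alone. The measure scales by total counts without TMM, so differences in composition, such as the rRNA share below, also enter it. Day 0 Dox replicate 2 stood apart in that the rRNA gene CT010467.1 took 4.76% of its counts, against 0.144 to 0.483% in the other 17 libraries, so each count below was also taken without that library. The first principal component of the day 0 and day 3 libraries held 89.7% of the variance and separated the days. On the second, with 2.12% of the variance, day 0 replicate 3 lay apart at -38.8 with Dox and -34.4 in control, against 11.9 to 32.3 in the other day 0 libraries, and the 2 largest chi-squares above were those of pairs with day 0 Dox replicate 3. The stem cell label held at day 0: Pou5f1 (1176, 1151 and 1248 CPM), Nanog (1072, 1007 and 1126 CPM) and Zfp42 (616, 567 and 653 CPM) were high in all 3 libraries.

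The exit from day 0 touched most of the transcriptome. In the Dox course 6535 genes rose and 6390 fell, 36.7% and 35.9% of the genes tested. Changes over 2-fold were found in 3525 genes that rose (19.8%) and 3381 that fell (19%), and changes over 16-fold in 802 and 927 genes. Without day 0 Dox replicate 2, 6346 genes rose and 6318 fell (34.8% and 34.7% of 18220), 6151 and 6094 of them were also called with all libraries, and 0 genes were called in opposite directions. Scaling by library size alone moved the median change of all genes by 0.15 on the log2 scale and gave 7742 genes higher and 5385 lower. Counts of list members below are to be read against these shares, since a list with shares like these in each direction is near the background. Without day 0 Dox replicate 2, core pluripotency gave 2 higher and 9 lower, ERK 10 and 4, and Nodal 6 and 6. BMP gave 6 and 3, endoderm 2 and 2, primitive and visceral endoderm 4 and 2, and Polycomb 4 and 14. R-loop processing gave 9 and 9, mitochondrial mRNAs 5 and 4, p53 targets 5 and 8, and cholesterol synthesis 17 and 2. Lysosomal genes gave 5 and 11 and ribosome biogenesis 5 and 5. The other lists kept their counts or are given both ways below. The share of all genes without overlap between the days is not given here. Many named genes were chosen for large changes, so a lack of overlap below only describes their libraries. Fewer cells of a type and less RNA per cell cannot be told apart in these bulk libraries.

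**Figure D1:**
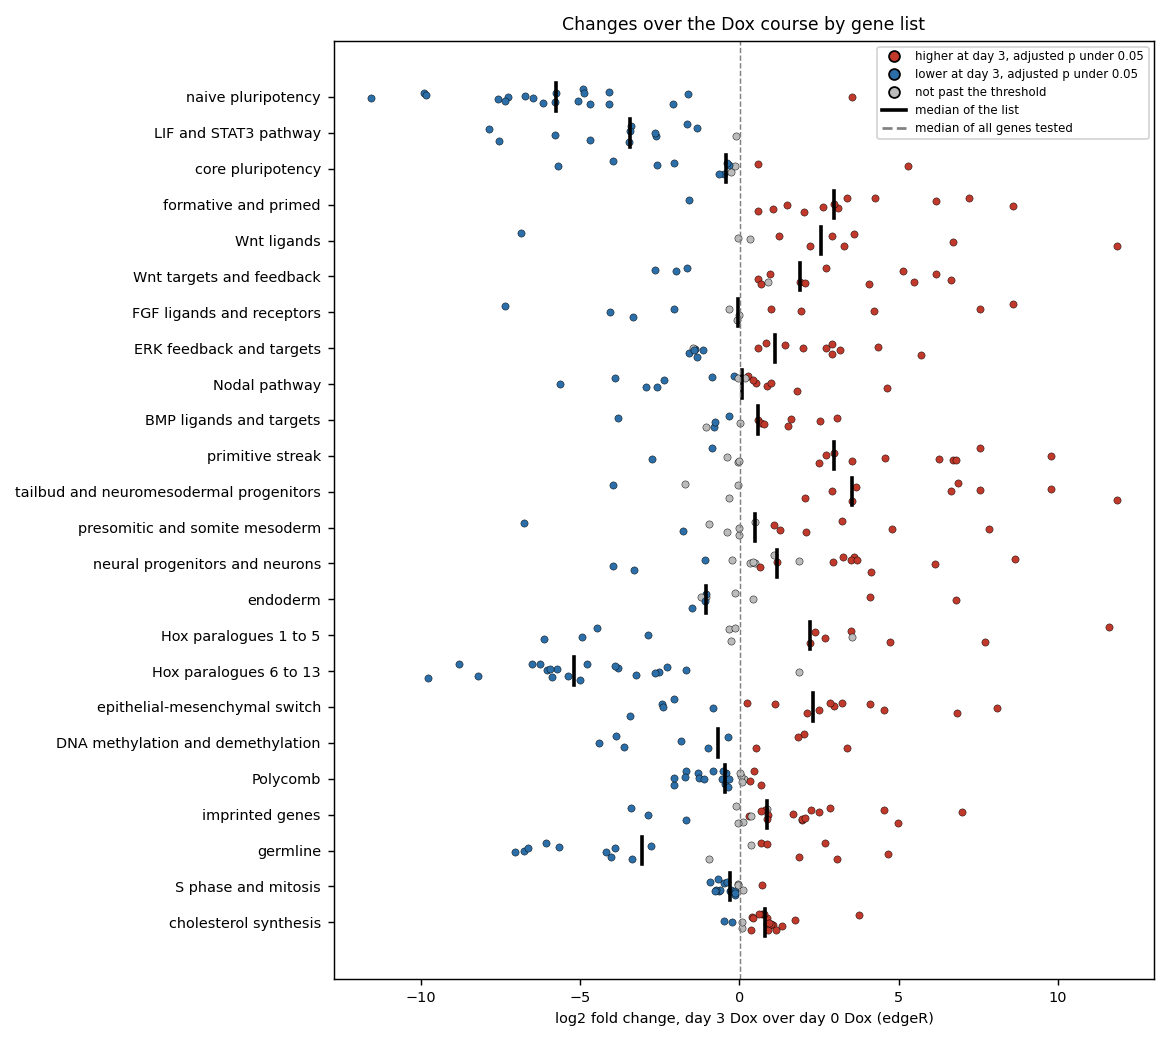
Log2 fold change of day 3 Dox over day 0 Dox (x axis) for the tested members of 24 gene lists (y axis), 1 point a gene, coloured by call, with a black bar at each list's median and a dashed line at the median of all genes. Naive pluripotency, LIF and STAT3 and the Hox paralogues 6 to 13 lay to the left, and formative, streak and tailbud genes to the right.

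Rnaseh1 (chr12:28649602-28659589, plus strand, GRCm38), the gene carried by the knock-in, was still above control levels at day 3 but lower than at day 0. It had 67.9, 70.2 and 66.1 CPM at day 3, against 172, 137 and 149 CPM at day 0, and the 2 groups did not overlap. The log2 change was -1.16 ± 0.07 SE, adjusted p = 5.35e-11. The day 3 control libraries had 22.2, 24.04 and 24.1 CPM and the day 0 control libraries 25.8, 30.3 and 28.7 CPM. Reads of the endogenous and the knocked-in copy are not separated in a gene-level count.

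Hprt (chrX:52988137-53021659, plus strand), which encodes a purine salvage enzyme, moved with it. Its level was 90.7, 86.5 and 87.8 CPM at day 3, against 378, 294 and 328 CPM at day 0, a log2 change of -1.92 ± 0.08 SE, adjusted p = 6.93e-14. In the control course Hprt had 20.5, 20.6 and 19.04 CPM at day 3 and 11.6, 13.2 and 12.3 CPM at day 0, so every Dox library exceeded every control library. At day 3 Rnaseh1 was at 44.6% of its day 0 mean with Dox and 82.95% in control, and Hprt at 26.5% with Dox and 162% in control.

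Naive pluripotency genes lost most of their RNA by day 3. Of 20 listed and tested, 19 fell and 1 rose, against 35.9% and 36.7% of all genes, and the median change was -5.77 against 0.01 over all genes. The summed level of the list was 597 to 616 CPM at day 3 and 7885 to 8345 CPM at day 0. Tcl1, a co-activator of AKT kinases, had 0.0298, 0.107 and 0 CPM at day 3, against 134, 138 and 150.2 CPM at day 0. Prdm14, a repressor that guards the naive state, had 0.0595, 0.0357 and 0.120 CPM at day 3, against 71.4, 74.2 and 76.8 CPM at day 0. Dppa3, also known as Stella, had 0.0595, 0.0713 and 0 CPM at day 3, against 33.9, 25.6 and 66.4 CPM at day 0. These 3 were close to 0 in every day 3 library and overlapped in none.

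Nuclear receptors of the naive network fell steeply too. Nr0b1 had 0.922, 0.749 and 0.661 CPM at day 3, against 148, 155 and 145 CPM at day 0 (-7.58 ± 0.16 SE, adjusted p = 2.06e-19). Nr5a2 had 1.07, 0.892 and 0.571 CPM at day 3, against 140.0, 139.8 and 108 CPM at day 0. Esrrb had 8.66, 8.20 and 7.52 CPM at day 3, against 885, 902 and 809 CPM at day 0. About 1 percent of the day 0 mean remained for these receptors, with 0.520% for Nr0b1, 0.654% for Nr5a2 and 0.939% for Esrrb. Zfp42, a zinc finger protein used as a stem cell marker, had 6.93, 6.53 and 7.13 CPM at day 3, against 616, 567 and 653 CPM at day 0. Klf4 had 2.44, 2.28 and 3.61 CPM at day 3, against 147, 175 and 138 CPM at day 0. Nanog kept more of its RNA. It had 253, 260.4 and 249.9 CPM at day 3, against 1072, 1007 and 1126 CPM at day 0, with 23.8% of the day 0 mean left (-2.07 ± 0.08 SE, adjusted p = 9.67e-14), and of the genes that fell Dppa4 alone had a smaller change (-1.62 ± 0.09 SE, adjusted p = 9.84e-12). Gbx2, a homeobox gene, was the 1 member that rose. It had 171, 138 and 158 CPM at day 3, against 17.96, 13.96 and 8.57 CPM at day 0 (3.54 ± 0.26 SE, adjusted p = 6.68e-10), with no overlap between the days.

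Core pluripotency genes, which stem cells of both the naive and later states express, split. Of 12 tested, 2 rose and 8 fell, with a median of -0.43. Pou5f1, which encodes OCT4, had 1027, 1116 and 1084 CPM at day 3, against 1176, 1151 and 1248 CPM at day 0. Its groups lay side by side without overlap, and the change did not pass the threshold (-0.15 ± 0.12 SE, adjusted p = 0.278). Sox2, its DNA-binding partner, fell, with 32.2, 28.9 and 26.9 CPM at day 3, against 474, 427 and 473 CPM at day 0 (-3.96 ± 0.06 SE, adjusted p = 5.87e-19). Per transcript length, Pou5f1 stood at 1248 ± 46.1 TPM at day 3 and 1242 ± 56.9 TPM at day 0, and Sox2 at 21.4 ± 2.02 and 299.97 ± 23.8 TPM (SD, n = 3 each). Pou5f1 thus exceeded Sox2 on both days, by a wider margin at day 3. Foxd3, a repressor needed in the epiblast, had 0.684, 0.535 and 0.421 CPM at day 3, against 27.7, 27.1 and 30.4 CPM at day 0. Tdgf1, the NODAL co-receptor Cripto, had 52.5, 73.2 and 60.6 CPM at day 3, against 298, 431 and 383 CPM at day 0. Lin28a, an RNA-binding protein that blocks let-7 maturation, rose, with 687, 663 and 685 CPM at day 3, against 21.6, 17.4 and 12.8 CPM at day 0 (5.30 ± 0.15 SE, adjusted p = 2.50e-15).

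**Figure D2:**
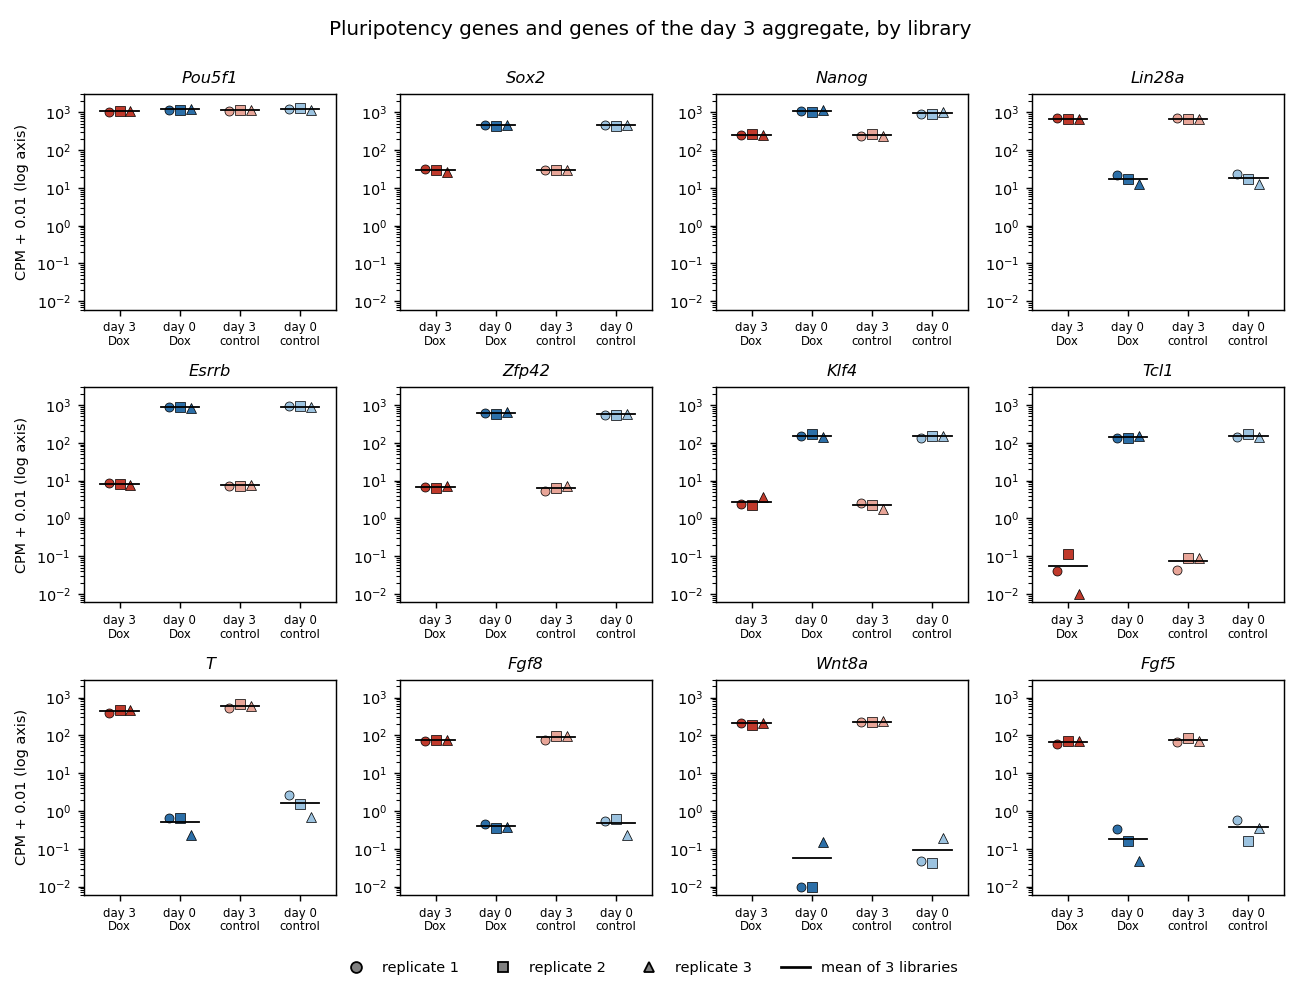
CPM plus 0.01 (y axis, log scale) of 12 genes in each library of day 3 Dox, day 0 Dox, day 3 control and day 0 control, with a line at the mean of 3 libraries. Pou5f1 differed little between the days, Sox2, Nanog, Esrrb, Zfp42, Klf4 and Tcl1 were lower at day 3, and Lin28a, T, Fgf8, Wnt8a and Fgf5 were higher.

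Short matches to factor motifs were looked up in the 250 bases upstream of RefSeq starts (GRCm38.p6), since genes of 1 network moved together. An ESRRB motif (AAGGTCA, either strand) lay in 34 of 667 windows of genes that fell over 16-fold (5.1%), in 15 of 694 windows of genes that rose over 16-fold (2.16%) and in 449 of 15401 windows of all genes tested (2.92%). A POU octamer (ATGCAAA) lay in 4.65%, 5.19% and 3.21% of the same windows, and a TCF/LEF motif (CTTTGAT) in 2.85%, 3.03% and 2.27%. A KLF motif (GGGTGTG), in 7.8%, 7.35% and 7.42%, and a T-box motif (GGTGTGA), in 3.6%, 2.45% and 2.84%, share 6 letters and can overlap. A match is only a run of letters. The windows came from 560 of the 927 genes that fell over 16-fold, 512 of the 802 that rose and 12083 of all 17795. A gene with several starts gave several windows, which can hold the same site. The shares are therefore of windows and not of genes. Among 11 naive genes with a window, the octamer was found in 2 (Nanog and Zfp42), the KLF motif in 2 (Esrrb and Zfp42) and the ESRRB, TCF/LEF and T-box motifs in 0. Among 9 Wnt target genes with a window, the octamer was found in 2 (Cdx2 and Rnf43), the ESRRB and KLF motifs in 1 (Tcf7), the TCF/LEF motif in 1 (Sp5) and the T-box motif in 0. The windows of Nanog, Zfp42 and Sp5 are shown as examples of such matches, with the matched letters in capitals (on the minus strand of the window in Nanog and Zfp42, where a KLF match follows the octamer). They lie at chr2:70474673-70474922 (Sp5, plus strand), chr6:122707239-122707488 (Nanog, plus strand, the first of its 2 listed starts) and chr8:43307010-43307259 (Zfp42, minus strand), read 5′ to 3′.
Sp5: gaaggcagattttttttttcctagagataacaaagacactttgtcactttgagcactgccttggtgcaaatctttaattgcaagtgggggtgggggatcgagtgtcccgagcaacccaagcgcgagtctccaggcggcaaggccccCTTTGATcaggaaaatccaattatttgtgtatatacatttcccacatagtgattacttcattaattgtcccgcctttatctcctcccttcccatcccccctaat
Nanog: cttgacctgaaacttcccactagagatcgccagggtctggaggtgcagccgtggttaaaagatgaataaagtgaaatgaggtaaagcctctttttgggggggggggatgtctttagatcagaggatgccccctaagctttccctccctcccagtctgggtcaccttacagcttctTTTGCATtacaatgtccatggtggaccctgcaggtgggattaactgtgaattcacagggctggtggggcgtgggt
Zfp42: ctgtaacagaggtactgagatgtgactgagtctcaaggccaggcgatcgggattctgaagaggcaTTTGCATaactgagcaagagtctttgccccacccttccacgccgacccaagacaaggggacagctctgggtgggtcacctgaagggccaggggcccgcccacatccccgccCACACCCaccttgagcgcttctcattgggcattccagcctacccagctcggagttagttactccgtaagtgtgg

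Most LIF signalling genes fell. LIF acts through LIFR and gp130 (Il6st) on the kinase JAK1 and the transcription factor STAT3. Of 12 tested members 11 fell and 0 rose, with a median of -3.42. The receptor gene Lifr had 6.43, 6.35 and 5.62 CPM at day 3, against 66.1, 68.1 and 68.6 CPM at day 0 (-3.46 ± 0.15 SE, adjusted p = 1.80e-13). Stat3 had 21.8, 20.2 and 19.99 CPM at day 3, against 108, 135 and 137 CPM at day 0 (-2.62 ± 0.08 SE, adjusted p = 3.06e-15). Jak1 did not pass the threshold (-0.10 ± 0.07 SE, adjusted p = 0.218). Bcl3, a co-regulator of NF-kB, fell steeply. It had 0.476, 0.571 and 0.631 CPM at day 3, against 79.3, 125 and 108 CPM at day 0 (-7.54 ± 0.33 SE, adjusted p = 1.27e-15). Socs3, the feedback inhibitor of the pathway, had 3.42, 4.03 and 2.92 CPM at day 3, against 21.9, 36.2 and 51.7 CPM at day 0, and none of its libraries overlapped between days.

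Most formative and primed genes rose. Of 13 tested, 12 rose, 11 of them over 2-fold, and 1 fell, with a median of 2.98. Fgf5, the growth factor gene that marks the formative epiblast, had 58.6, 71.8 and 70.02 CPM at day 3, against 0.332, 0.156 and 0.0365 CPM at day 0 (8.60 ± 0.54 SE, adjusted p = 1.35e-15), and its change was 9.41 without day 0 Dox replicate 1. Sox11, a SOX family transcription factor gene, had 149, 142 and 152 CPM at day 3, against 1.12, 0.936 and 0.912 CPM at day 0. Pou3f1, which encodes OCT6, had 42.5, 43.4 and 42.9 CPM at day 3, against 1.74, 2.46 and 2.52 CPM at day 0. Lef1, a transcription factor of the Wnt pathway, had 152, 156 and 165 CPM at day 3, against 2.7, 2.03 and 1.90 CPM at day 0 (6.17 ± 0.21 SE, adjusted p = 1.26e-15). In each of these 4 genes the lowest day 3 library was many times the highest day 0 library. Otx2, a transcription factor of the formative and anterior epiblast, went the other way, with 8.27, 11.3 and 9.26 CPM at day 3, against 22.3, 27.8 and 35.5 CPM at day 0 (-1.57 ± 0.20 SE, adjusted p = 1.02e-06).

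DNA methylation genes changed in both directions, 4 higher and 6 lower of 10. The de novo methyltransferase gene Dnmt3b had 801, 871 and 843 CPM at day 3, against 84.7, 71.6 and 84.1 CPM at day 0 (3.39 ± 0.08 SE, adjusted p = 2.00e-16), and Dnmt3a rose too (2.04 ± 0.11 SE, adjusted p = 4.01e-12). Their cofactor gene Dnmt3l fell, with 0.387, 0.642 and 0.481 CPM at day 3, against 4.23, 1.99 and 12.4 CPM at day 0, with uneven day 0 libraries. Demethylating enzymes split. Tet2 had 9.70, 8.06 and 8.63 CPM at day 3, against 217, 183 and 158 CPM at day 0 (-4.40 ± 0.18 SE, adjusted p = 1.34e-13), Tet1 fell (-1.83 ± 0.16 SE, adjusted p = 5.78e-09) and Tet3 rose (1.83 ± 0.13 SE, adjusted p = 2.26e-10). Zfp57, which protects methylation at imprinted regions, had 35.1, 33.4 and 33.9 CPM at day 3, against 492, 474 and 540.5 CPM at day 0 (-3.88 ± 0.07 SE, adjusted p = 2.24e-18). Uhrf1, which guides DNMT1 to replicated DNA, fell (-0.99 ± 0.05 SE, adjusted p = 5.06e-12).

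FGF ligand genes changed in both directions. Of 12 FGF ligand and receptor genes, 5 rose and 4 fell, near the background. Fgf4, the ligand of stem cells, had 2.05, 1.82 and 2.13 CPM at day 3, against 302, 304 and 391 CPM at day 0 (-7.37 ± 0.18 SE, adjusted p = 1.34e-17). Fgf8, the ligand of the streak, had 71.7, 75.5 and 75.3 CPM at day 3, against 0.456, 0.351 and 0.365 CPM at day 0 (7.56 ± 0.29 SE, adjusted p = 2.66e-17). For each of these ligands the libraries of the days lay far apart. Fgf15 rose (4.21 ± 0.28 SE, adjusted p = 6.01e-12), as did Fgfr1, a receptor of the epiblast (1.00 ± 0.05 SE, adjusted p = 4.28e-12).

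ERK feedback and target genes, many of which read FGF signalling, rose in 10 and fell in 5 of 16 cases, with a median of 1.13. Dusp4, an ERK phosphatase, had 39.5, 45.7 and 46.3 CPM at day 3, against 0.829, 0.741 and 0.948 CPM at day 0 (5.70 ± 0.30 SE, adjusted p = 7.93e-14). Spry4, a feedback inhibitor of receptor signalling, had 20.9, 24.9 and 26.9 CPM at day 3, against 1.12, 1.44 and 0.985 CPM at day 0 (4.35 ± 0.20 SE, adjusted p = 1.54e-13). Il17rd, also known as Sef, had 219, 196 and 216 CPM at day 3, against 26.7, 25.1 and 19.4 CPM at day 0. Spred1 had 182, 178 and 186 CPM at day 3, against 27.04, 24.2 and 21.4 CPM at day 0. In all 4 the days were separated by several-fold in every library. The ETS factor genes Etv4 (-1.15 ± 0.12 SE, adjusted p = 8.45e-08) and Etv5 (-1.33 ± 0.09 SE, adjusted p = 7.47e-11), often listed with these, fell. Egr1 was the member with no stable day 0 level. It had 9.61, 10.5 and 10.97 CPM at day 3, against 11.2, 74.6 and 0.219 CPM at day 0, and day 0 Dox replicate 2 was above and replicate 3 below every day 3 library. Without replicate 2 Fos no longer passed the threshold (adjusted p = 0.325, against 0.0181 with all libraries and 3.19e-05 to 0.325 over the alternatives).

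Among Wnt ligands 7 of 10 tested rose and 1 fell, with a median of 2.56. Wnt8a, expressed in the early streak, had 220.0, 192 and 210.4 CPM at day 3, against 0, 0 and 0.146 CPM at day 0 (11.86 ± 0.88 SE, adjusted p = 3.64e-18), with counts in 1 of the 3 day 0 libraries. Without that library, replicate 3, the fitted change was 15.68. Wnt3, which initiates the streak in the mouse embryo, had 36.5, 40.2 and 37.5 CPM at day 3, against 0.415, 0.468 and 0.219 CPM at day 0 (6.70 ± 0.28 SE, adjusted p = 6.37e-16). Wnt11 rose as well (3.61 ± 0.48 SE, adjusted p = 5.40e-07, and 4.26 without day 0 Dox replicate 1), but at no more than a few CPM. Wnt7b fell, with 0.149, 0.0357 and 0.120 CPM at day 3, against 10.2, 10.9 and 16.8 CPM at day 0 (-6.85 ± 0.54 SE, adjusted p = 1.49e-12). Wnt3a, the ligand of the tailbud, stayed under 1 CPM on both days, with 0.595, 0.678 and 0.391 CPM at day 3, against 0.332, 0.585 and 0.766 CPM at day 0.

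Of 15 Wnt target and feedback genes, 11 rose and 3 fell, with a median of 1.89. Cdx2, a caudal homeobox gene, had 42.3, 35.03 and 43.5 CPM at day 3, against 0.663, 0.390 and 0.182 CPM at day 0 (6.63 ± 0.58 SE, adjusted p = 3.93e-11). Nkd1, a feedback inhibitor, had 52.01, 52.3 and 53.8 CPM at day 3, against 1.41, 1.91 and 1.13 CPM at day 0 (5.15 ± 0.12 SE, adjusted p = 3.64e-18). Axin2, the common readout of the pathway, had 121, 122 and 123 CPM at day 3, against 51.7, 29.4 and 18.1 CPM at day 0 (1.89 ± 0.25 SE, adjusted p = 2.25e-06). Sp5 had 60.9, 63.1 and 60.5 CPM at day 3, against 17.3, 7.68 and 3.65 CPM at day 0 (2.71 ± 0.40 SE, adjusted p = 8.97e-06, and 3.45 without day 0 Dox replicate 1). Day 3 levels of Axin2 and Sp5 were nearly equal across libraries, whereas at day 0 replicate 1 was highest and replicate 3 lowest for both. Tcf7l1, the repressor of the TCF family, fell (-1.65 ± 0.07 SE, adjusted p = 2.41e-13), as did Notum (-1.99 ± 0.11 SE, adjusted p = 9.50e-12) and Sfrp1 (-2.64 ± 0.13 SE, adjusted p = 1.65e-12), which both encode secreted Wnt inhibitors.

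Nodal pathway genes were near the background in number, 7 higher and 7 lower of 16. Nodal itself fell modestly, with 66.8, 79.2 and 67.1 CPM at day 3, against 126, 113 and 147 CPM at day 0 (-0.86 ± 0.10 SE, adjusted p = 2.77e-07). Its relative Gdf3 had 3.36, 2.28 and 2.44 CPM at day 3, against 132, 136 and 132 CPM at day 0 (-5.62 ± 0.11 SE, adjusted p = 1.35e-18). Pcsk6, which encodes a pro-protein convertase, had 15.6, 12.02 and 16.1 CPM at day 3, against 226, 203 and 229 CPM at day 0 (-3.90 ± 0.09 SE, adjusted p = 6.85e-17). The inhibitors Lefty2 and Lefty1 moved apart. Lefty2 had 17.2, 16.5 and 17.8 CPM at day 3, against 195, 135 and 62.4 CPM at day 0 (-2.93 ± 0.36 SE, adjusted p = 1.06e-06). Lefty1 had 94.7, 80.9 and 85.4 CPM at day 3, against 70.1, 39.7 and 34.5 CPM at day 0 (0.86 ± 0.24 SE, adjusted p = 0.00379). Without day 0 Dox replicate 2 the smaller calls of Acvr2b (adjusted p = 0.054, 9.86e-05 to 0.161 over the alternatives) and Smad2 (adjusted p = 0.0637, 0.00613 to 0.777 over the alternatives) were not made.

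BMP ligand and target genes gave 7 higher and 4 lower of 13. Id3, an inhibitor of helix-loop-helix factors induced by BMP, had 36.8, 29.1 and 32.3 CPM at day 3, against 4.69, 5.50 and 1.75 CPM at day 0 (3.06 ± 0.33 SE, adjusted p = 6.23e-08). Msx1 had 5.12, 7.71 and 6.67 CPM at day 3, against 0.746, 1.44 and 1.17 CPM at day 0 (2.53 ± 0.26 SE, adjusted p = 4.31e-08). Id4 moved against them, with 1.84, 1.93 and 1.92 CPM at day 3, against 30.7, 26.2 and 22.8 CPM at day 0 (-3.80 ± 0.16 SE, adjusted p = 9.97e-14). Chrd, which encodes the BMP antagonist Chordin, rose to 12.1, 13.1 and 13.1 CPM at day 3, against 2.94, 4.64 and 5.51 CPM at day 0. Bmp4 rose by 0.57 ± 0.23 with all libraries, at no more than 4 CPM, and did not pass without day 0 Dox replicate 2 (adjusted p = 0.136, 0.00338 to 0.164 over the alternatives).

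Most primitive streak genes rose. Of 15 tested, 10 rose and 2 fell, with a median of 2.96. T (chr17:8434423-8442496, plus strand) had 390.0, 483 and 483 CPM at day 3, against 0.663, 0.663 and 0.219 CPM at day 0 (9.79 ± 0.45 SE, adjusted p = 2.16e-16). Foxa2, expressed in the anterior streak, had 16.96, 18.3 and 17.5 CPM at day 3, against 0.0415, 0.195 and 0.219 CPM at day 0 (6.79 ± 0.45 SE, adjusted p = 1.31e-13). Eomes, a T-box gene of the early streak, had 22.05, 43.3 and 35.96 CPM at day 3, against 6.18, 3.51 and 3.43 CPM at day 0 (2.96 ± 0.29 SE, adjusted p = 2.76e-08). Mixl1 had 5.65, 11.3 and 9.20 CPM at day 3, against 0.456, 0.273 and 0.365 CPM at day 0 (4.57 ± 0.46 SE, adjusted p = 4.37e-09). T, Foxa2 and Mixl1 were under 1 CPM in all day 0 Dox libraries, and replicate 1 was the lowest day 3 library for T, Eomes and Mixl1. Gsc, a gene of the anterior streak and organizer, fell, with 2.08, 2.82 and 3.37 CPM at day 3, against 14.5, 20.5 and 20.9 CPM at day 0 (-2.76 ± 0.22 SE, adjusted p = 1.95e-09). Nodal was the other member that fell.

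Tailbud and neuromesodermal progenitor genes gave 9 higher and 1 lower of 13, with a median of 3.52. Nkx1-2, which marks the progenitor zone, had 226, 199.5 and 226 CPM at day 3, against 3.73, 1.64 and 0.328 CPM at day 0 (6.88 ± 0.49 SE, adjusted p = 2.41e-11, and 7.81 without day 0 Dox replicate 1). Day 3 libraries were alike, while at day 0 replicate 1 was the highest and replicate 3 the lowest, at a low level. Cdx1 had 54.03, 48.7 and 57.2 CPM at day 3, against 17.7, 10.7 and 9.95 CPM at day 0 (2.06 ± 0.20 SE, adjusted p = 3.47e-08). Sox2 was the 1 member that fell, and Cyp26a1, which encodes a retinoic acid hydroxylase, stayed under 1 CPM on both days. Presomitic and somite genes were mostly low at day 3, with 6 higher and 2 lower of 13. Dll1, a Notch ligand, had 11.4, 9.81 and 10.5 CPM at day 3, against 0.373, 0.195 and 0.547 CPM at day 0 (4.80 ± 0.36 SE, adjusted p = 2.15e-12). Its relative Dll3 had 11.8, 15.4 and 15.4 CPM at day 3, against 1.08, 2.03 and 1.46 CPM at day 0 (3.22 ± 0.20 SE, adjusted p = 1.91e-11). Tbx6, the determinant of presomitic fate, had 0.625, 0.820 and 0.421 CPM at day 3, against 0.249, 0.507 and 1.09 CPM at day 0 and did not pass the threshold (adjusted p = 0.973). Msgn1 was too low to be tested.

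Neural genes gave 10 higher and 3 lower of 19, with a median of 1.18 (1.88 without day 0 Dox replicate 2). Sox3, a neural progenitor gene, had 63.8, 55.2 and 57.3 CPM at day 3, against 1.37, 0.468 and 0.693 CPM at day 0 (6.14 ± 0.23 SE, adjusted p = 1.57e-16). Map2, a microtubule-associated protein gene of neurons, had 12.2, 9.74 and 10.3 CPM at day 3, against 0.912, 1.25 and 0.365 CPM at day 0 (3.69 ± 0.26 SE, adjusted p = 8.24e-11). The homeobox gene Irx3 had 6.28, 4.71 and 4.57 CPM at day 3, against 0.415, 0.624 and 0.255 CPM at day 0 (3.59 ± 0.32 SE, adjusted p = 1.32e-10). The days did not overlap for these 3 genes. Sox1, the early neural plate gene, had 17.9, 9.31 and 13.9 CPM at day 3, against 5.93, 12.7 and 10.8 CPM at day 0, with overlapping groups (adjusted p = 0.0852). Tubb3, a neuronal tubulin that stem cells also express, fell, with 9.05, 7.63 and 9.50 CPM at day 3, against 123, 145 and 146 CPM at day 0 (-3.98 ± 0.10 SE, adjusted p = 2.00e-16), as did Pax6, with 0.655, 0.892 and 0.902 CPM at day 3, against 7.38, 7.37 and 9.41 CPM at day 0 (-3.31 ± 0.24 SE, adjusted p = 3.47e-11). Definitive endoderm genes gave 2 higher and 3 lower of 9. Sox17 stayed under 1 CPM, with 0.0893, 0.0713 and 0.331 CPM at day 3, against 0.415, 0.273 and 0.365 CPM at day 0, while Foxa2 and the tight junction gene Cldn6 (70.4, 83.3 and 76.8 CPM at day 3, against 3.90, 4.56 and 4.81 CPM at day 0) rose.

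Markers of other cell types that the cultures could hold differed in level between lists. Fibroblast markers, with 4 higher and 1 lower of 8 tested, summed to 15.8 to 17.2 CPM at day 3 and 4.48 to 6.98 CPM at day 0. Of these, Postn was at 0 in all 6 libraries, Fap did not exceed 0.0365 CPM, and Thy1 was the highest at day 3, with 7.65, 8.28 and 8.72 CPM, against 0.373, 0.936 and 0.401 CPM at day 0. Cardiac genes gave 3 higher and 4 lower of 10 and summed to 31.4 to 32.4 CPM at day 3 and 4.05 to 4.85 CPM at day 0. Most of the day 3 sum was Actc1, an actin gene (22.1, 20.7 and 20.1 CPM at day 3, against 0.166, 0 and 0.0365 CPM at day 0), while Nkx2-5, which defines the lineage, was under 1 CPM in every library. Endothelial and blood genes gave 3 higher and 3 lower of 10 and summed to 18.9 to 22.4 CPM at day 3 and 151 to 174 CPM at day 0. The endothelial cadherin gene Cdh5 did not exceed 0.0902 CPM, Lmo2 rose (11.3, 13.02 and 13.7 CPM at day 3, against 0.290, 0.546 and 0.292 CPM at day 0) and Pecam1, which stem cells also express, fell (2.11, 1.85 and 2.31 CPM at day 3, against 139, 143 and 153 CPM at day 0). Trophoblast genes gave 3 higher and 3 lower of 8 (summed level 31.96 to 33.03 CPM at day 3 and 92.2 to 111 CPM at day 0), with keratin genes Krt8 (3.34 ± 0.20 SE, adjusted p = 1.73e-11) and Krt18 (3.49 ± 0.19 SE, adjusted p = 3.89e-12) higher and Tfap2c (-3.36 ± 0.14 SE, adjusted p = 1.15e-13) lower. Primitive and visceral endoderm genes gave 4 higher and 3 lower of 11 and summed to 430.4 to 452 CPM at day 3 and 542 to 629 CPM at day 0, with Gata6 and Sox17 under 1 CPM. Lamb1 rose, with 176, 172 and 172 CPM at day 3, against 35.6, 32.98 and 34.2 CPM at day 0, and Lama1 fell, with 7.74, 8.42 and 6.79 CPM at day 3, against 81.9, 113 and 81.5 CPM at day 0, both laminin chains. The part of such cells in the other results was not tested.

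Hox genes divided by position in the cluster. Hox genes are numbered along their clusters, with low numbers active in anterior parts of the body and first in time. Of 15 tested genes of paralogue groups 1 to 5, 7 rose and 4 fell. Hoxb1 had 14.97, 8.10 and 13.7 CPM at day 3 and no count at day 0, a level at least 105-fold higher against a floor of 3 counts per library. Hoxb2 had 8.0, 3.64 and 6.79 CPM at day 3, against 0.0415, 0 and 0.0365 CPM at day 0 (adjusted p = 2.09e-10, with 2 counts in all at day 0). Day 3 replicate 2 was the lowest day 3 library for Hoxb1, Hoxb2, Hoxa2 and Hoxa3. Among groups 1 to 3, 7 genes rose and 0 fell, and the 4 that fell (Hoxb4, Hoxc4, Hoxc5, Hoxd4) were of groups 4 and 5.

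Of 20 tested genes of groups 6 to 13, 19 fell and 0 rose, with a median of -5.20 (-4.06 with genes at 0 taken at their bound). The levels that were lost were low for most, and highest for Hoxc13 and Hoxb9. Hoxc13 had 0.357, 0.250 and 0.451 CPM at day 3, against 19.3, 20.7 and 27.4 CPM at day 0 (-5.96 ± 0.23 SE, adjusted p = 2.12e-15). Hoxb9 had 0.179, 0.178 and 0.150 CPM at day 3, against 16.1, 18.7 and 12.4 CPM at day 0 (-6.51 ± 0.56 SE, adjusted p = 4.72e-13). Hoxd9 had 0, 0 and 0.0601 CPM at day 3, against 6.47, 8.03 and 7.62 CPM at day 0 (adjusted p = 1.66e-12, with 2 counts in all at day 3). At day 3 no gene of groups 6 to 13 reached 1 CPM in any Dox library. Hoxb6, with a count in 1 library, was not called, and the call of Hoxa6 rests on few counts (0, 0 and 0 CPM at day 3, against 0.0829, 0 and 0.0729 CPM at day 0).

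**Figure D3:**
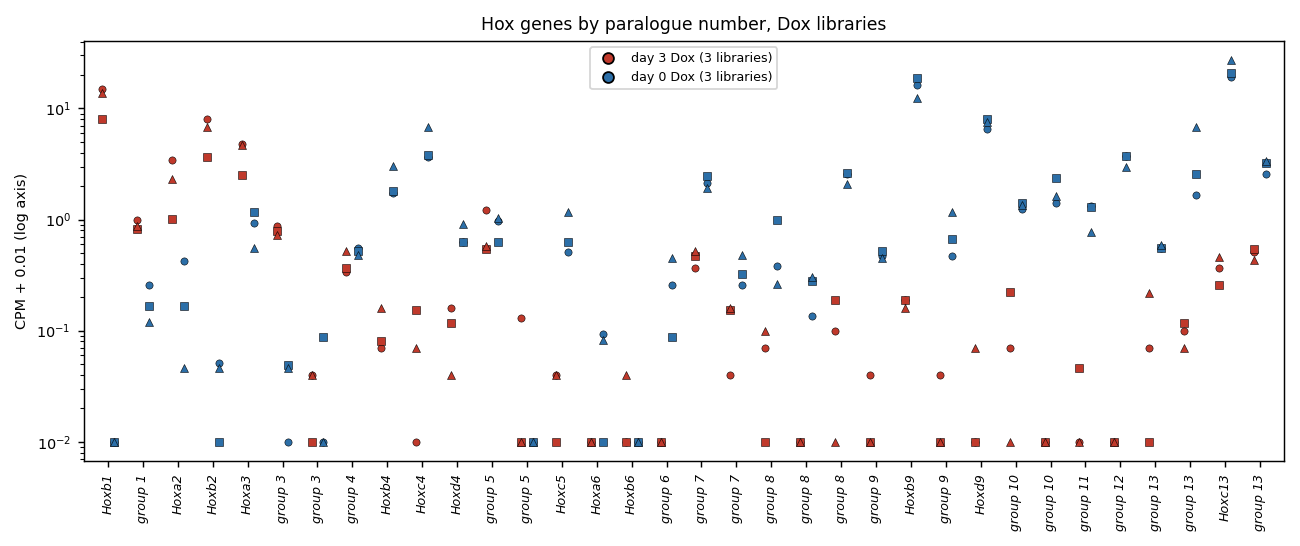
CPM plus 0.01 (y axis, log scale) of tested Hox genes, ordered by paralogue number (x axis, with the gene's name where the text gives it and its group number otherwise), in the 3 day 3 Dox and the 3 day 0 Dox libraries. Day 3 points lie above day 0 points at the left, for Hoxb1 and Hoxb2, and below them from groups 6 to 13, except for Hoxa6 and Hoxb6, where they overlap or touch.

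Genes of epithelial and mesenchymal cells changed in both directions. Of 16 genes of the epithelial-mesenchymal switch, 11 rose and 5 fell, with a median of 2.32. Esrp1, an epithelial splicing regulator, had 94.1, 99.1 and 103 CPM at day 3, against 0.456, 0.195 and 0.438 CPM at day 0 (8.08 ± 0.24 SE, adjusted p = 7.47e-19). Its paralogue Esrp2 fell, with 1.73, 1.78 and 1.35 CPM at day 3, against 8.63, 8.69 and 8.71 CPM at day 0, and the length-scaled levels put Esrp1 at 40.1 ± 1.95 TPM at day 3 and 0.130 ± 0.0520 TPM at day 0, against 0.883 ± 0.206 and 4.71 ± 1.36 TPM for Esrp2. Epcam had 161, 166 and 169 CPM at day 3, against 16.1, 16.2 and 20.6 CPM at day 0 (3.22 ± 0.11 SE, adjusted p = 1.18e-14). The claudin gene Cldn7 had 25.6, 32.1 and 28.6 CPM at day 3, against 0.663, 1.17 and 1.82 CPM at day 0 (4.54 ± 0.34 SE, adjusted p = 3.27e-10). Cdh1, which encodes E-cadherin, rose little (0.24 ± 0.07 SE, adjusted p = 0.00637), and Cdh2, which encodes N-cadherin, had 37.97, 30.8 and 36.9 CPM at day 3, against 6.84, 3.86 and 3.97 CPM at day 0 (2.86 ± 0.18 SE, adjusted p = 2.13e-11). Among repressors of the epithelial state, Zeb2 (6.83 ± 0.41 SE, adjusted p = 3.96e-15) and Snai1 (2.51 ± 0.20 SE, adjusted p = 1.23e-09) rose and Zeb1 (-2.04 ± 0.12 SE, adjusted p = 1.60e-11) fell. Without day 0 Dox replicate 2 the change of Zeb2 was 7.74. Fn1 (fibronectin) had 177, 163 and 176 CPM at day 3, against 1986, 1925 and 1706 CPM at day 0 and was among the 5 largest losses of CPM.

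Polycomb genes were mostly lower. Polycomb complexes place repressive marks on histones H3 and H2A. Of 21 tested, 3 rose and 14 fell, with a median of -0.44. Cbx8, which encodes a reader of the mark, fell (-2.06 ± 0.14 SE, adjusted p = 1.95e-10), as did Mtf2 (-1.71 ± 0.06 SE, adjusted p = 3.41e-14) and Suz12 (-1.66 ± 0.06 SE, adjusted p = 3.58e-14). Suz12 had 128, 132 and 129 CPM at day 3, against 455, 401 and 374 CPM at day 0. The methyltransferase gene Ezh2 fell less (-0.43 ± 0.07 SE, adjusted p = 1.37e-05). Cbx2 rose (0.69 ± 0.05 SE, adjusted p = 9.82e-11). With library size alone, 6 members were called higher and 14 lower.

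Genes of the H2A.Z variant and its exchange complexes changed little in size. Of 21 tested, 4 rose and 9 fell, and 0 changed over 2-fold. H2afz, the main H2A.Z gene, had 723, 711 and 718 CPM at day 3, against 648, 682 and 784 CPM at day 0 (0.03 ± 0.07 SE, adjusted p = 0.755), and H2afv fell slightly (-0.38 ± 0.07 SE, adjusted p = 7.69e-05). Ino80 (-0.77 ± 0.08 SE, adjusted p = 8.77e-08), Srcap (-0.60 ± 0.17 SE, adjusted p = 0.004) and Morf4l1 (-0.60 ± 0.04 SE, adjusted p = 4.20e-10) fell, and Mbtd1 rose (0.54 ± 0.11 SE, adjusted p = 1.69e-04). These small changes depended on scaling, since library size alone gave 8 higher and 5 lower. R-loop processing genes other than Rnaseh1 moved both ways, 9 higher and 10 lower of 24 with Rnaseh1 included. The helicase gene Pif1 had 23.03, 26.4 and 22.7 CPM at day 3, against 74.4, 80.1 and 78.98 CPM at day 0 (-1.70 ± 0.06 SE, adjusted p = 8.85e-15), and the helicase gene Fancm fell (-1.62 ± 0.12 SE, adjusted p = 9.70e-10). Rnaseh2b, a subunit of RNase H2, fell, with 36.98, 37.1 and 37.2 CPM at day 3, against 75.9, 80.8 and 84.1 CPM at day 0 (-1.11 ± 0.07 SE, adjusted p = 2.58e-11), while Rnaseh2c rose (0.40 ± 0.08 SE, adjusted p = 3.40e-04).

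Glycolysis and hypoxia genes gave 13 higher and 7 lower of 21, with related enzymes moving in opposite directions. The phosphofructokinase gene Pfkl had 446, 432 and 439 CPM at day 3, against 124, 99.6 and 106 CPM at day 0 (2.00 ± 0.08 SE, adjusted p = 6.44e-14). Pfkp had 31.7, 33.4 and 32.1 CPM at day 3, against 357, 382 and 326 CPM at day 0 (-3.45 ± 0.09 SE, adjusted p = 5.65e-16). On the length-scaled level Pfkl stood at 190.2 ± 6.02 TPM at day 3 and 44.3 ± 5.67 TPM at day 0, and Pfkp at 10.6 ± 0.702 and 128 ± 4.16 TPM (SD, n = 3 each), so their order differed between the days. The glucose transporter gene Slc2a1 rose (0.88 ± 0.09 SE, adjusted p = 4.35e-08) and Slc2a3 fell (-2.15 ± 0.09 SE, adjusted p = 1.70e-13). Hexokinase genes Hk1 (-2.89 ± 0.09 SE, adjusted p = 2.05e-15) and Hk2 (-1.43 ± 0.06 SE, adjusted p = 3.70e-13) both fell. Pdk1, which encodes a kinase that inhibits pyruvate dehydrogenase, had 139, 139 and 139.9 CPM at day 3, against 17.4, 13.6 and 10.1 CPM at day 0 (3.35 ± 0.13 SE, adjusted p = 9.23e-14). The lactate exporter gene Slc16a3 had 177, 187 and 189 CPM at day 3, against 24.8, 18.6 and 18.9 CPM at day 0 (3.15 ± 0.14 SE, adjusted p = 3.58e-13). Ldha had 1546, 1614 and 1631 CPM at day 3, against 490.1, 414 and 396 CPM at day 0 (1.88 ± 0.11 SE, adjusted p = 1.26e-11).

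Cholesterol synthesis genes rose together by small amounts, 16 higher and 2 lower of 20, with a median of 0.81. Lss, which encodes lanosterol synthase, had 202, 194 and 198 CPM at day 3, against 62.7, 62.7 and 53.2 CPM at day 0 (1.74 ± 0.07 SE, adjusted p = 6.50e-14). Idi1 had 235, 229 and 228 CPM at day 3, against 113, 103 and 94.95 CPM at day 0 (1.15 ± 0.07 SE, adjusted p = 2.36e-11). For both the days did not overlap. The regulator gene Srebf2 had overlapping groups, with 377, 368 and 381 CPM at day 3, against 359.8, 379 and 323 CPM at day 0. Mitochondrially encoded mRNAs gave 4 higher and 4 lower of 13, and 7 higher and 1 lower with library size alone. mt-Co1 was the member with the largest loss of CPM, with 12328, 12641 and 12430 CPM at day 3, against 14823, 14917 and 13728 CPM at day 0 (-0.22 ± 0.05 SE, adjusted p = 8.15e-04), a fall that did not pass with library size alone (adjusted p = 0.234, 1.10e-05 to 0.234 over the alternatives).

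Most cell cycle genes fell slightly. Of 18 S phase and mitosis genes, 14 fell and 1 rose, with a median of -0.29 and no change over 2-fold. Without day 0 Dox replicate 2, 12 fell and 1 rose. For changes this small the scaling matters, since library size alone moved the median of all genes by 0.15. Ccne1, a cyclin of S phase entry, had 90.5, 89.1 and 89.5 CPM at day 3, against 171, 172 and 168 CPM at day 0 (-0.93 ± 0.07 SE, adjusted p = 7.60e-10), and Mki67 overlapped (352, 333 and 338 CPM at day 3, against 337, 354 and 251 CPM at day 0). G1 regulators changed far more, with 3 higher and 5 lower of 10. Ccnd2 had 199, 164 and 178 CPM at day 3, against 2.28, 0.975 and 0.875 CPM at day 0 (7.06 ± 0.33 SE, adjusted p = 2.20e-14), whereas Ccnd3 had 78.3, 76.02 and 72.3 CPM at day 3, against 470.3, 503 and 472 CPM at day 0 (-2.67 ± 0.06 SE, adjusted p = 2.05e-17). On the length-scaled level Ccnd3 led at day 0, with 334 ± 10.9 TPM, against 0.530 ± 0.489 TPM for Ccnd2, and at day 3 they stood at 59.4 ± 2.45 and 42.3 ± 4.77 TPM. Cdkn2a fell (-1.36 ± 0.09 SE, adjusted p = 1.29e-10). Targets of p53 gave 6 higher and 7 lower of 19, near the background. Gdf15 (0.684, 0.928 and 0.661 CPM at day 3, against 12.6, 16.4 and 20.4 CPM at day 0) and Mdm2 (100.2, 103 and 101 CPM at day 3, against 192, 171 and 262 CPM at day 0) fell, and the pro-apoptotic gene Pmaip1 rose (31.3, 33.1 and 29.6 CPM at day 3, against 3.32, 2.03 and 3.46 CPM at day 0).

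Integrated stress response genes gave 10 higher and 7 lower of 19, with a median of 0.17. Ddit4 had 451, 426 and 432 CPM at day 3, against 38.2, 49.2 and 44.3 CPM at day 0 (3.31 ± 0.09 SE, adjusted p = 4.22e-16). Nupr1 had 1.43, 1.71 and 1.44 CPM at day 3, against 22.1, 50.9 and 22.4 CPM at day 0 (-4.38 ± 0.33 SE, adjusted p = 5.45e-10), and Asns, asparagine synthetase, had 289, 292 and 309.8 CPM at day 3, against 744, 814 and 701 CPM at day 0 (-1.34 ± 0.08 SE, adjusted p = 3.56e-11). Day 0 Dox replicate 2 was the highest day 0 Dox library for 18 of the 19 genes, against 26.7% of all genes tested. Chac1 had 38.3, 39.95 and 39.4 CPM at day 3, against 12.6, 30.8 and 11.1 CPM at day 0 (1.11 ± 0.30 SE, adjusted p = 0.00251, and 1.73 without that library). Trib3 had 23.7, 25.04 and 28.8 CPM at day 3, against 33.5, 66.9 and 37.5 CPM at day 0 (-0.83 ± 0.23 SE, adjusted p = 0.00292). Without that library 10 members rose and 6 fell.

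Replication-dependent histone genes turned on day 0 Dox replicate 2 more than any other of the 41 lists. Their mRNAs normally lack a poly(A) tail, and all were under 10 CPM. With all libraries 1 rose and 5 fell of 15, with a median of -1.15. Without that library 4 rose and 2 fell, with a median of 0.48. Their summed level was 14.5 to 15.8 CPM at day 3 and 12.1 to 64.01 CPM at day 0. Hist1h3e had 0.774, 0.963 and 0.691 CPM at day 3, against 0.0829, 4.91 and 0.365 CPM at day 0. Hist2h2aa1 had 0.179, 0.749 and 0.451 CPM at day 3, against 1.20, 7.33 and 1.28 CPM at day 0. Replicate 2 was the highest day 0 Dox library for 15 of the 15 genes, as it was in its rRNA share. The part of that library's RNA in these values was not tested.

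Lysosomal genes gave 4 higher and 11 lower of 20 (7 higher with library size alone), with a median of -0.53. Tfeb, the transcription factor that activates such genes, had 5.59, 7.38 and 6.52 CPM at day 3, against 57.2, 79.9 and 65.9 CPM at day 0 (-3.38 ± 0.15 SE, adjusted p = 5.33e-13). Glb1 had 19.3, 22.05 and 20.9 CPM at day 3, against 85.2, 105 and 91.96 CPM at day 0 (-2.18 ± 0.09 SE, adjusted p = 2.02e-13). Ribosome biogenesis genes gave 6 higher and 6 lower of 21, and 12 higher and 3 lower with library size alone. Myc had 28.5, 33.9 and 33.1 CPM at day 3, against 3.98, 1.25 and 0.912 CPM at day 0 (3.99 ± 0.38 SE, adjusted p = 6.73e-09, and 4.88 without day 0 Dox replicate 1), and its relative Mycn had 65.7, 64.5 and 60.6 CPM at day 3, against 127, 122 and 129 CPM at day 0 (-0.98 ± 0.07 SE, adjusted p = 3.06e-10). In TPM, Mycn stood at 35.8 ± 1.60 at day 3 and 62.8 ± 2.79 at day 0, and Myc at 22.6 ± 1.37 and 1.45 ± 1.09.

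Imprinted genes, which are expressed from 1 parental allele, rose in 15 and fell in 3 of 23 cases, with a median of 0.87. Magel2 had 40.7, 45.2 and 44.5 CPM at day 3, against 0.415, 0.390 and 0.219 CPM at day 0 (6.99 ± 0.34 SE, adjusted p = 1.96e-15). Nnat had 14.6, 11.95 and 14.2 CPM at day 3, against 0.290, 0.390 and 0.583 CPM at day 0 (4.98 ± 0.35 SE, adjusted p = 4.76e-13). Igf2 had 6.40, 6.24 and 6.82 CPM at day 3, against 0.705, 0.117 and 0.0365 CPM at day 0 (4.55 ± 0.55 SE, adjusted p = 1.91e-09), and its change was 6.36 without day 0 Dox replicate 1. Plagl1 fell, with 24.8, 24.04 and 25.9 CPM at day 3, against 279.5, 249.9 and 266 CPM at day 0 (-3.41 ± 0.10 SE, adjusted p = 9.07e-16), as did Slc38a4 (-2.87 ± 0.10 SE, adjusted p = 1.78e-14) and Grb10 (-1.69 ± 0.10 SE, adjusted p = 3.48e-11). Counts per gene do not tell the alleles apart.

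Germline genes gave 6 higher and 10 lower of 18. Rpl10l had 1.07, 1.36 and 1.08 CPM at day 3, against 137, 159.7 and 169 CPM at day 0 (-7.06 ± 0.22 SE, adjusted p = 7.20e-17), an autosomal retrogene whose reads could be shared with Rpl10. Dazl, an RNA-binding protein of germ cells, had 0.476, 0.428 and 0.361 CPM at day 3, against 28.7, 32.98 and 24.6 CPM at day 0 (-6.08 ± 0.25 SE, adjusted p = 6.35e-15). Hormad1 had 0.565, 0.499 and 0.481 CPM at day 3, against 24.7, 26.5 and 27.3 CPM at day 0 (-5.65 ± 0.24 SE, adjusted p = 2.12e-14). Sycp3 rose, with 20.3, 22.6 and 19.2 CPM at day 3, against 3.03, 3.39 and 3.28 CPM at day 0 (2.67 ± 0.16 SE, adjusted p = 3.61e-11). Of 13 markers of 2-cell-like cells, 2 passed the filter on low counts and 0 were called. Zscan4c had 0, 0 and 0.481 CPM at day 3, against 0.581, 0.195 and 0.510 CPM at day 0. Zscan4f had 0.327, 0.214 and 0.782 CPM at day 3, against 0.746, 0 and 0.292 CPM at day 0. They are close copies between which reads can be split.

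The largest rises and falls were ranked by fitted fold change, which favours genes with few or no counts on the other day. How many of them had no count therefore follows in part from the ranking and does not describe the course. Among the 12 genes with the largest rises, 9 had no count in any day 0 Dox library. Ccdc194 had 37.7, 37.9 and 39.4 CPM at day 3, at least 328-fold higher against the floor of 3 counts per library. Enpp2, which encodes autotaxin, had 28.6, 32.9 and 29.4 CPM (at least 259-fold higher). Foxb1, a forkhead gene, had 132, 116 and 121 CPM at day 3, against 0.0415, 0.0390 and 0 CPM at day 0. The ephrin receptor gene Epha1 had 144, 156 and 153 CPM at day 3, against 0.0415, 0 and 0.0729 CPM at day 0. The set also held Rxrg, Pcdh18, Adamts6, Xkr4, Pde2a, Hoxb1 and Wnt8a. Among the 12 largest falls, 7 had no count in any day 3 Dox library. Osm, the cytokine oncostatin M, had 32.1, 29.3 and 31.2 CPM at day 0, at least 323-fold more than the floor at day 3. Aspa had 16.5, 16.1 and 40.8 CPM at day 0, with replicate 3 the highest, and Ddr2, a collagen receptor gene, 12.6, 18.8 and 15.6 CPM. Calcoco2, an autophagy receptor gene, had 0.149, 0.143 and 0.0601 CPM at day 3, against 305, 246 and 370.3 CPM at day 0. Spic had 0.0298, 0 and 0.0301 CPM at day 3, against 34.7, 31.8 and 37.01 CPM at day 0. The remaining genes with such falls were Lrrc31, Sash3, Msln and Pramef17, each with no count at day 3, and Crxos, Tcl1 and Bhmt.

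The largest gains in CPM included those of Eno1, Scd2, Pkm and Pim2. Eno1 (enolase) had 3353, 3442 and 3417 CPM at day 3, against 1770, 1570 and 1735 CPM at day 0 (1.01 ± 0.06 SE, adjusted p = 1.92e-11). Scd2, a fatty acid desaturase gene, had 2611, 2364 and 2509 CPM at day 3, against 1216, 1230 and 871 CPM at day 0 (1.17 ± 0.10 SE, adjusted p = 5.75e-09). Pkm (pyruvate kinase) had 3451, 3453 and 3438 CPM at day 3, against 2352, 2051 and 2082 CPM at day 0 (0.67 ± 0.07 SE, adjusted p = 3.83e-08). Pim2, a kinase gene, was the 1 gene among the 5 largest gains that was low at day 0, with 1256, 1270 and 1293 CPM at day 3, against 20.8, 15.9 and 27.2 CPM at day 0 (5.90 ± 0.13 SE, adjusted p = 1.56e-16). Its relatives Pim1 (-3.43 ± 0.08 SE, adjusted p = 1.08e-16) and Pim3 (-2.65 ± 0.08 SE, adjusted p = 6.78e-16), in the STAT3 list, fell. The largest losses were of Hsp90aa1, a chaperone gene, with 1892, 1863 and 1861 CPM at day 3, against 4904, 4980 and 5430 CPM at day 0 (-1.45 ± 0.05 SE, adjusted p = 1.20e-14), mt-Co1, Fn1, Dppa5a and Hspa8 (-0.55 ± 0.06 SE, adjusted p = 1.71e-07). Dppa5a had 49.9, 54.5 and 44.6 CPM at day 3, against 1553, 1425 and 2009 CPM at day 0, and its close copies could share reads with it. No overlap between the groups was a condition of the choice of these 5.

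The control course ran almost in parallel. In control cells 6627 genes rose and 6455 fell (37.2% and 36.3%), and 6033 and 5915 of these were called in the same direction with Dox. Across 11681 genes of at least 5 CPM in any of the 4 groups the log2 changes of the courses correlated at r = 0.987, as a description across genes, which are not independent replicates. The difference of the changes (Dox minus control) had an SD of 0.31 on the log2 scale, and the median half-width of its 95% interval was 0.26. It exceeded 1 in either direction in 148 of these genes. The courses share the RHKI line and the libraries' preparation but no library. Esrrb changed by -6.73 with Dox and -6.92 without, T by 9.79 and 8.56, and Fgf5 by 8.60 and 7.74. Over the 20 naive genes the differences had a median of 0.17, over the 13 formative genes -0.05, and 0 genes of either list were called.

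**Figure D4:**
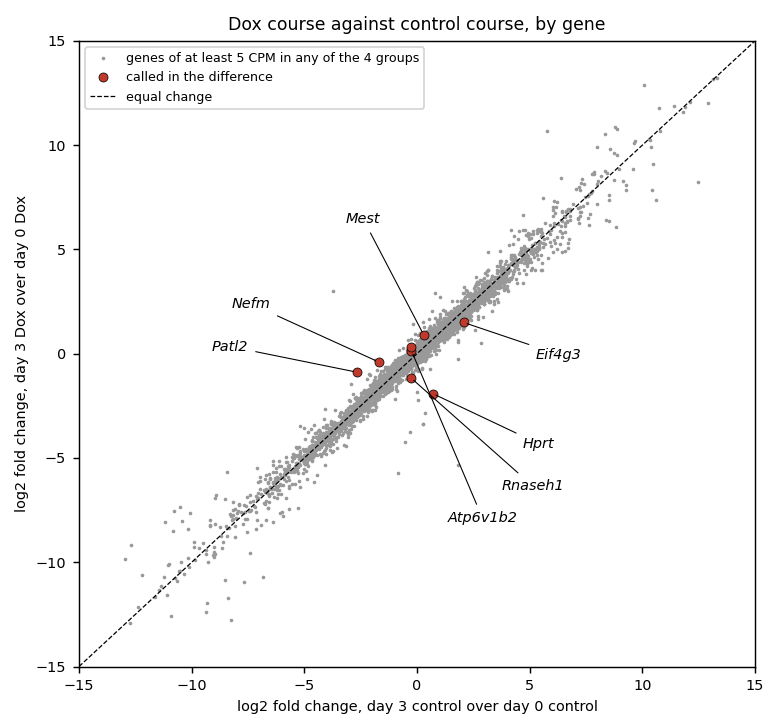
Log2 fold change of day 3 Dox over day 0 Dox (y axis) against that of day 3 control over day 0 control (x axis), 1 point for each of 11681 genes, with the dashed line at equal change. Points lie along the line (r = 0.987), and the 7 labelled genes are among those called in the difference of the courses.

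In the test of the difference 10 genes were called (0.0562%), 7 with a change more positive with Dox (0.0393%) and 3 more negative (0.0169%), while 1433 genes had an unadjusted p under 0.05. With the replicate number as a block, 26 and 9 genes were called, and without day 0 Dox replicate 2, 2 (0.011%) and 4 (0.022%). Hprt differed by -2.61 (95% interval -2.86 to -2.36) on the log2 scale, adjusted p = 2.66e-10, and Rnaseh1 by -0.89 (95% interval -1.12 to -0.67), adjusted p = 8.65e-04. Both were far higher at day 0 with Dox than in control. Eif4g3, a translation initiation factor gene, rose less with Dox. With Dox it had 212, 206 and 208 CPM at day 3, against 74.1, 80.2 and 67.9 CPM at day 0, and in control 209, 211 and 216 CPM at day 3, against 52.3, 46.6 and 53.1 CPM at day 0. The difference was -0.57 (95% interval -0.76 to -0.39), adjusted p = 0.0164. The day 3 levels of Eif4g3 lay close together in both courses, and the day 0 levels were higher with Dox.

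Other genes called in the difference likewise had day 3 levels near each other and day 0 levels apart. Among the genes named here, the day 3 groups of Patl2, Atp6v1b2 and Slc44a5 did not overlap either. Slc44a5 had 2.21 to 2.65 CPM in day 3 Dox and 1.96 to 2.12 CPM in day 3 control libraries. Atp6v1b2 had 206 to 210 CPM in day 3 Dox and 191 to 197 CPM in day 3 control libraries. Nefm, a neurofilament gene, had 14.8, 20.98 and 19.8 CPM in day 3 Dox and 29.3, 19.5 and 24.7 CPM in day 0 Dox libraries, against 15.4, 22.3 and 20.2 CPM in day 3 control and 63.5, 68.2 and 56.6 CPM in day 0 control libraries. Its difference was 1.29 (95% interval 0.85 to 1.74), adjusted p = 0.0255, and adjusted p = 0.0621 without day 0 Dox replicate 2. Patl2, an RNA-binding protein gene, had 2.62, 2.82 and 2.56 CPM at day 3, against 4.52, 4.76 and 5.51 CPM at day 0 with Dox. In control it had 2.29, 1.62 and 1.87 CPM at day 3, against 9.28, 16.04 and 11.2 CPM at day 0, a difference of 1.78 (95% interval 1.15 to 2.41), adjusted p = 0.027. Mest, an imprinted gene, rose in both courses and more with Dox, by 0.59 (95% interval 0.37 to 0.81), adjusted p = 0.0447. Atp6v1b2 (difference 0.39, adjusted p = 0.0198), a subunit gene of the proton pump of lysosomes, rose slightly with Dox and fell slightly in control. Slc44a5 (difference 3.00, 95% interval 2.28 to 3.72, adjusted p = 1.21e-04) and Fam181b (difference 1.51, adjusted p = 0.0447) were also called, at under 3 CPM. Slc44a5 rose in both courses and more with Dox. Without day 0 Dox replicate 2 the adjusted p was 0.0717 for Patl2, 0.124 for Mest, 0.0717 for Atp6v1b2 and 0.124 for Fam181b. Eif4g3 (0.0449) and Slc44a5 (5.14e-04) stayed called.

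**Figure D5:**
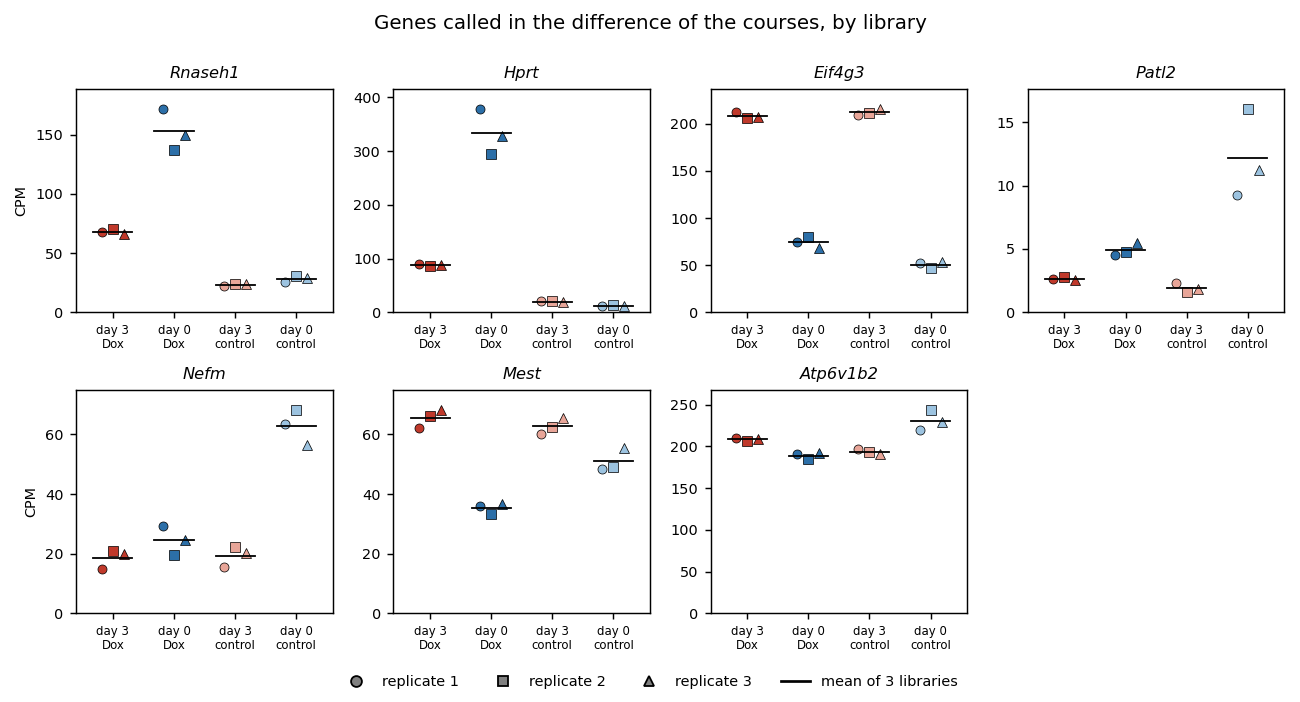
CPM (y axis, linear from 0) of 7 genes of at least 5 CPM called in the difference of the courses, by library in day 3 Dox, day 0 Dox, day 3 control and day 0 control, with a line at the mean of 3 libraries. Apart from Rnaseh1 and Hprt the 2 day 3 groups lie near each other and the 2 day 0 groups lie apart. For Patl2 and Atp6v1b2 the day 3 groups do not overlap either.

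In some lists many genes had an unadjusted p under 0.05 for the difference between courses, against 8.05% of all genes tested, and none of these was called. Of 19 stress response genes 16 did, with a median difference of -0.59. Day 0 Dox replicate 2 was the highest day 0 Dox library for 18 of the 19, and without it 9 did (7.73% of all genes), with a median of -0.46. Day 0 Dox levels of this list summed to 2734 to 3534 CPM, against 2271 to 2753 CPM in day 0 control, while day 3 sums were 2941 to 3041 with Dox and 3077 to 3108 CPM in control. Of 20 lysosomal genes 11 had such a p, with a median difference of 0.29. So did, among others, 5 of 15 primitive streak, 4 of 13 tailbud, 5 of 16 ERK and 5 of 21 Polycomb genes. Of 15 histone genes 5 did, and 0 without day 0 Dox replicate 2. Of 15 Wnt target genes 8 did, with a median of 0.29 and a range of -2.48 to 1.95. Without day 0 Dox replicate 3 this count was 5. Cdx1 had 54.03, 48.7 and 57.2 CPM in day 3 Dox and 17.7, 10.7 and 9.95 CPM in day 0 Dox libraries, against 63.5, 64.5 and 62.4 CPM in day 3 control and 48.02, 45.9 and 26.6 CPM in day 0 control libraries, a difference of 1.41 (95% interval 0.83 to 1.98), adjusted p = 0.0619.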

How the data were processed

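Poly(A) RNA of all 18 libraries had been sequenced after a stranded Illumina preparation, per the labels' protocols. The authors deposited estimated counts and TPM per gene for each library. The tools listed in the submitters' processing notes, with no order given, are RSEM 1.3.3, STAR 2.7.10a, DESeq2 1.38.2 and Trimmomatic, with GRCm38 as the build. Whether counting used the strand is not given in the sources used here. Of 55401 gene IDs, 55141 matched GENCODE vM21, from which symbols and positions came. The deposited expected counts were rounded (6.54 to 7.49% were not whole).

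Genes were kept by filterByExpr (minimum count 10, total 15), scaled by TMM and tested with edgeR 4.0.16 (R 4.3.3) in 1 quasi-likelihood fit of all 18 libraries in 6 groups, which leaves 12 residual degrees of freedom, with Benjamini-Hochberg adjustment over 17795 genes. The contrasts were day 3 Dox minus day 0 Dox, the same in control, and the difference between them. Deposited TPM was used only to compare levels between genes. Floors of 3 counts and Poisson noise cover counting error only. The script was tested on simulated data. Motifs were matched on both strands of RefSeq upstream windows, without chromosome 18, and the printed windows were chosen after the matches were seen.

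The members, the 41 gene lists and the tests were chosen with earlier results of these data known. Named genes were Rnaseh1 and Hprt, the 12 largest rises and 12 largest falls, and the 5 largest gains and losses of CPM. Both rankings took only genes of at least 5 CPM, with no overlap, called with and without day 0 Dox replicate 2. Added to these were up to 4 called members of each list with the largest changes, and genes of at least 5 CPM called in the difference. Other genes in the text, such as list members that went against their list or were not called, were chosen after their values were seen. A few of the selected genes are not reported here. Dux is not in the annotation used.

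The labels' batch tag repeats the replicate number. Deviations from group means correlated at -0.02 to 0.04 between same-numbered day 3 Dox and day 0 Dox libraries (-0.05 to 0.03 for other pairs) and at 0.21 to 0.33 between day 0 Dox and day 0 control libraries. Alternatives were the replicate block, the compared groups alone, RLE factors or library size alone, other filters, DESeq2 1.42.0, limma-voom (limma 3.58.1), removal of the rRNA gene, a fold threshold and each library left out. Limits on counts are those of 25748897 to 38128366 counts per library.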

Additional observations from a re-analysis of the deposited data

Results flagged for a closer look

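For 7 genes named here the change over the Dox course differed from the change over the control course in edgeR's quasi-likelihood test. There were 3 libraries in each of 4 groups, and each gene had at least 5 CPM in the highest of these groups. The differences, Dox minus control on the log2 scale, were -2.61 for Hprt (adjusted p 2.66e-10, 4.49e-88 to 1.93e-07 over the alternatives) and -0.89 for Rnaseh1 (adjusted p 8.65e-04, 1.12e-10 to 0.033). Eif4g3 differed by -0.57 (adjusted p 0.0164, 2.88e-06 to 0.115). The others were more positive with Dox. Patl2 differed by 1.78 (adjusted p 0.027, 4.48e-06 to 0.159) and Nefm by 1.29 (adjusted p 0.0255, 1.28e-11 to 0.139). Mest differed by 0.59 (adjusted p 0.0447, 2.17e-06 to 0.161) and Atp6v1b2 by 0.39 (adjusted p 0.0198, 1.23e-07 to 0.15). Hprt and Rnaseh1 kept an adjusted p under 0.05 in every alternative run, and the others of these 7 lost it in some. Slc44a5, at under 3 CPM, differed by 3.00 and also kept it in every alternative (adjusted p 1.21e-04, 1.86e-09 to 0.033).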

How the results depend on the processing

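The counts of the Dox course kept their size, at 5749 to 7742 genes higher and 5385 to 6703 lower over the changed normalizations, filters, fits and tools, except that a change of at least 2-fold was met by 3525 and 3381 genes. Leaving out 1 library at a time gave 6282 to 6491 higher and 6183 to 6337 lower. Of 2716 values for 170 genes of the naming rule, 2701 kept their direction and side of the threshold, 10 lost the call (mt-Co1, mt-Co2 and mt-Atp6), 3 gained one, 2 of Zscan4f, which was not called, changed sign, and 0 called genes reversed. Of 1312 counts of list members 37 moved by over 1.5 times, mostly of histone genes, of lists with few members called and under library size alone.

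The difference of the courses rested on the fit. Against 7 genes more positive and 3 more negative with Dox, DESeq2 called 84 and 33, limma-voom 17 and 8, no filter 121 and 82, and at least 1 CPM in 3 libraries 10 and 5. RLE factors and library size alone each called 7 and 5, and a difference of at least 1 on the log2 scale 4 and 1. With the replicate block the counts were 26 and 9, with the compared groups alone 1 and 2, and with these groups and the block 2 and 2. The block changed no call of a named gene in the fit of all groups. Leaving out 1 library at a time gave 1 to 41 and 2 to 16, the most without day 0 control replicate 3 (41 and 11) and day 0 Dox replicate 3 (27 and 16). The cause was not tested. Of 176 values for the 8 genes of the naming rule, 129 kept the call, 47 lost it and 0 reversed. Low levels limit the Hox and histone genes, several of which rest on a few counts per library.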
